A study of Rattus norvegicus with 78 samples.

Results

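The genes described here encode kinesins, cytoplasmic dyneins and dynactin, the motors that move cargo along microtubules, measured in rats, in hippocampal tissue (HIP) and in tissue of the prefrontal and frontal cortex (P/FC). They were chosen by their symbol in the array annotation, which had to start with Kif, Klc, Dync, Dynl or Dctn, and by a mean intensity above 30 over the 78 arrays, where each gene is read by its brightest probeset. The symbols took in 57 genes with 90 probesets of the 31042 on the array that are not controls, and 49 of the 57 genes passed the mean. The 8 genes that did not pass were Kif12, Kif14, Kif15, Kif18a, Kif18b, Kif20a, Kif20b and Kif23. Just outside the limit Kif12 had a mean of 28.6, and just inside it were Kif2c at 31.7, Kif11 at 33.9 and Kifc1 at 34.8. A further 6 probesets carry the symbol of a second gene as well, among them those of Dynll1 and Dctn3, and these were not used.

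Kinesins walk mostly toward the plus ends of microtubules and carry vesicles, mitochondria and cytoskeletal parts from the cell body into the axon, while cytoplasmic dynein 1 with its activator dynactin walks toward the minus ends and brings endosomes and survival signals back. Dynein-2 runs inside primary cilia, where it returns what kinesin-2 has taken to the tip. Neurons depend on these motors more than most cells because of the length of their axons, and inherited changes in several of the genes cause neuropathies or disorders of brain development.

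The Flinders Sensitive Line (FSL) was selectively bred and serves to model depression, with the Flinders Resistant Line (FRL) as its control. All animals were male adults of both lines, bred at 1 institute, which had met the forced swim test a week before the tissue of the right hemisphere was taken. Cohort 1 held 12 FRL and 9 FSL rats and cohort 2, set up 6 months later, held 10 FRL and 8 FSL rats, so that each region has 22 FRL and 17 FSL arrays. P/FC was the whole frontal lobe, and the regions were processed separately. The labels conflict in 1 respect: each FSL array is FSL by title and strain, but carries the abbreviation FRL in its source name (P/FC) or its description (HIP), where the line is still spelled out as Sensitive. Title and strain were followed. No agent or transgene separates the groups, and the lines differ at many loci, so that a line difference is not tied to 1 gene. The background-subtracted array intensities are linear, and their median ranged from 56.8 to 63.0 over the arrays of HIP and was at least 60.8 on every array of P/FC. Of the hippocampal neuron markers tested, 4 of 5 were higher in HIP (21.1% of all probesets were), and 7 of 8 striatal markers were higher in P/FC (48.5% of all).

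Change here means the difference of mean log2 intensity, FSL minus FRL, with equal weight for both cohorts. It was fitted with limma over the probesets that exceeded 30 in 50% or more of the arrays of both lines, and a member was called where its p was under 0.05 after Benjamini-Hochberg adjustment over all those probesets. In HIP 47 members were tested, since Dynlt5 and Kif11 did not pass this filter, and in P/FC 48, since Kif22 did not. Because the samples are pieces of whole tissue, fewer cells of a type and less RNA per cell cannot be told apart in any of the values. The authors also could not exclude that polymorphisms in the probed sequences, rather than transcript levels, lie behind part of the line differences. This was not tested here. Intensities of different probesets are on different scales, so genes are not ranked by them.

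In HIP 6 of the 47 members were called, against 7.33% of all 21630 probesets tested. Dync2i1, Kifbp, Kifap3, Dync1i1 and Kif2a rose in FSL rats (3.2% of all probesets rose) and Kifc2 fell (4.13% fell). In P/FC 13 of the 48 members were called, against 18.6% of all 22370 probesets. There Dctn4, Dync2i1, Dync1h1, Kifbp, Dync1i1, Kifap3, Dync1li1, Kif2a, Dync2h1 and Dynlrb1 rose (9.76% of all rose), and Kifc2, Kif5a and Kifc3 fell (8.86% of all fell). The median change of the members was 0.011 in HIP, beside -0.0016 over all probesets, and 0.051 in P/FC, beside 0.0019. All 6 genes called in HIP were called in P/FC with the same sign, and the other 7 calls were made in P/FC only. How often HIP calls recur in P/FC over all probesets was not counted here, so the repeat is not shown to be particular to motor genes. By its own threshold, the paper found most of its HIP differences in P/FC too, nearly all in the same direction. Both regions come from 1 set of rats, so that the repeat of a call in the second region is no separate sample of animals.

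The 3 genes whose rise was called in both regions with the largest changes in HIP were Dync2i1, Kifbp and Kifap3. Their upstream sequences are shown because these genes carry the line difference in both regions. Each is the 250 bases before the start site that the RefSeq promoter table gives for the gene in the reference rat (GRCr8), 5′ to 3′ on the strand of the gene, with chr6:143331575-143331824 on the minus strand for Dync2i1, chr13:78671051-78671300 on the plus strand for Kifap3 and chr20:31075193-31075442 on the minus strand for Kifbp. The capitals mark matches, on either strand, to the NRF1 motif (GCGCA, any base, then GCGC), the CCAAT box CCAAT, the GC box GGGCGG or the cyclic AMP response element TGACGTCA.
Dync2i1 promoter: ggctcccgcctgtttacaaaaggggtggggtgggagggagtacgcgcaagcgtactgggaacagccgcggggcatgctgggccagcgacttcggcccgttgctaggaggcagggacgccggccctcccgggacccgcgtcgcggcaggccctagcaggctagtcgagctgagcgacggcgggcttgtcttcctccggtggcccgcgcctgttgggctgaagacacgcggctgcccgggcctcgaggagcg
Kifap3 promoter: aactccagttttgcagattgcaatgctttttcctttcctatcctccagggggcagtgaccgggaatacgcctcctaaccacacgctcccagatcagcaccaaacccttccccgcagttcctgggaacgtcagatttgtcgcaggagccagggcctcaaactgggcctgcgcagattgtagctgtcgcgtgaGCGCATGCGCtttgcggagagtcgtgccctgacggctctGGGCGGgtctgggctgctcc
Kifbp promoter: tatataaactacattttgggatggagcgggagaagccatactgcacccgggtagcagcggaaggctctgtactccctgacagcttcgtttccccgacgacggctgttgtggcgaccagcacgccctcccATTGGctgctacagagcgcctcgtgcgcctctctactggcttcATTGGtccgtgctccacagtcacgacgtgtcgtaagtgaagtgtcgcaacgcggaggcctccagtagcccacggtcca
That start site is not the outermost end of the gene record: the stretches of Dync2i1 and Kifap3 lie wholly inside the bounds of their gene records and that of Kifbp overlaps them in part, so other starts of these genes are not covered. Kifap3 held 1 NRF1 motif and 1 GC box, Kifbp held 2 CCAAT boxes, and Dync2i1 held none of the 4, and no 2 matches overlapped. Over all 33469 promoters of this length, 3.75% held the NRF1 motif, 34.0% the CCAAT box, 30.5% the GC box and 1.59% the cyclic AMP response element. Of the 43 members with a promoter in the table, 9 held the NRF1 motif (20.9%), 17 the CCAAT box (39.5%), 25 the GC box (58.1%) and 4 the cyclic AMP response element (9.3%). The members were kept for a signal on the array, while the 33469 promoters were not limited in this way. The 2 sets of shares are thus not of like genes, and the difference is not shown to be particular to motor genes. These are matches of letters in the reference strain, and neither factor binding nor the sequence of the Flinders lines was measured.

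Dync2i1, an intermediate chain of the ciliary dynein-2 also known as Wdr60, had the largest change in HIP. Its intensity in HIP of cohort 1 ranged from 86.5 to 126 in FRL rats (median 112, n = 12) and from 130 to 176 in FSL rats (median 142, n = 9). In cohort 2 it ranged from 103 to 135 in FRL (median 114, n = 10) and from 137 to 172 in FSL (median 153, n = 8). Every FSL rat of a cohort thus lay above every FRL rat of that cohort, and no other member was separated in this way. Lines without overlap were found for 0.236% of all probesets in cohort 1 and 0.573% in cohort 2, and here for 1 of 47 members in each. The change in HIP was 0.42 (SE 0.048, limma adjusted p = 4.69e-08), with 0.44 in cohort 1 (adjusted p = 2.54e-05) and 0.40 in cohort 2 (adjusted p = 4.10e-04).

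In P/FC the lines overlapped in Dync2i1, with 91.1 to 163 in FRL and 131 to 177 in FSL rats of cohort 1 and 95.7 to 163 and 131 to 171 in cohort 2. Of the FSL rats 9 of 9 and 7 of 8 lay above the FRL median of 118 and 131. The change was 0.30 (SE 0.063, limma adjusted p = 9.51e-04), called in cohort 1 (0.38, adjusted p = 0.00498) and not in cohort 2 (0.22, adjusted p = 0.172). No member was without overlap in P/FC, where 0.277% of all probesets were in cohort 1 and 0.554% in cohort 2. Among the other dynein-2 genes, Dync2h1, the heavy chain, rose in P/FC by 0.12 (SE 0.039, adjusted p = 0.0259) and was at 0.053 in HIP (adjusted p = 0.416). The second intermediate chain Dync2i2 was at 0.011 in HIP and -0.037 in P/FC and the light intermediate chain Dync2li1 at 0.0023 and -0.034, and none of the 4 values passed. Their 95% intervals reach at most from -0.16 to 0.098.

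Kifap3, the accessory subunit that joins the kinesin-2 heavy chains Kif3a and Kif3b to cargo, ranged in HIP of cohort 1 from 1031 to 1264 in FRL (median 1172) and from 1204 to 1316 in FSL (median 1261). In cohort 2 the range was 1033 to 1217 in FRL (median 1096) and 1203 to 1323 in FSL (median 1243), where 6 of 8 FSL rats lay above every FRL rat. The change in HIP was 0.15 (SE 0.026, limma adjusted p = 1.30e-04). In P/FC cohort 1 the FRL rats spanned 1207 to 1724 (median 1576) and the FSL rats 1374 to 1754 (median 1607), and the ranges overlapped over most of their length. In cohort 2 they spanned 1212 to 1630 (median 1359) and 1509 to 1822 (median 1663), and 5 of 8 FSL rats lay above all FRL rats. The change in P/FC was thus 0.053 in cohort 1 (adjusted p = 0.607) and 0.26 in cohort 2 (adjusted p = 0.00776), or 0.16 over both (adjusted p = 0.00554). The difference between the cohorts, 0.20 (95% interval 0.042 to 0.37), had an unadjusted p of 0.0149 and an adjusted p of 0.998.

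Kifbp encodes the KIF-binding protein, which holds several kinesins away from microtubules. In HIP of cohort 1 it ranged from 949 to 1298 in FRL (median 1138) and from 1284 to 1409 in FSL (median 1345), and in cohort 2 from 1090 to 1327 (median 1180) and from 1235 to 1373 (median 1305). In P/FC the ranges were 793 to 1066 and 1024 to 1171 in cohort 1 and 852 to 1177 and 1101 to 1194 in cohort 2. All 17 FSL rats lay above the FRL median of their cohort in both regions, though the ranges overlapped in each cohort. The changes were 0.17 in HIP (SE 0.036, limma adjusted p = 0.00138) and 0.21 in P/FC (SE 0.040, adjusted p = 2.28e-04). The spread was wider in FRL than in FSL rats, with an SD of 128 (n = 12) against 45.1 (n = 9) in HIP of cohort 1 and 92.8 (n = 10) against 29.5 (n = 8) in P/FC of cohort 2, which was not tested.

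Dync1i1, the intermediate chain of dynein-1 that is typical of neurons, rose by 0.11 in HIP (SE 0.026, limma adjusted p = 0.00727) and by 0.20 in P/FC (SE 0.049, adjusted p = 0.00327). In cohort 2 it lay between 965 and 1091 in FRL and 1055 and 1141 in FSL rats in HIP, and between 597 and 742 and 728 and 870 in P/FC, and in each region 6 of 8 FSL rats were above all FRL rats. Cohort 1 overlapped more, with 842 to 1081 and 936 to 1092 in HIP and 475 to 737 and 620 to 763 in P/FC, and 1 of 9 FSL rats above all FRL rats in each region. Kif2a, a kinesin that takes microtubule ends apart, rose by 0.095 in HIP (SE 0.027, adjusted p = 0.0226) and by 0.13 in P/FC (SE 0.038, adjusted p = 0.0146). Its FSL rats lay between 363 and 450 in HIP and 361 and 440 in P/FC, and the FRL rats between 354 and 438 and 309 and 452. Nearly all FSL rats stood above the FRL median of their cohort, 16 of 17 in HIP and 17 of 17 in P/FC, inside overlapping ranges.

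Kifc2 and Kifc3, kinesins with the motor at the C terminus that move toward minus ends, were on the other side. Kifc2, a motor of neurons, spanned 1020 to 1347 in FRL (median 1196) and 886 to 1050 in FSL (median 962) in P/FC of cohort 1, and 958 to 1343 (median 1109) and 951 to 1070 (median 995) in cohort 2. All 17 FSL rats lay below the FRL median of their cohort there, and 6 of 9 in cohort 1 below every FRL rat. In HIP the ranges were 761 to 891 and 727 to 867 in cohort 1 and 814 to 1074 and 799 to 883 in cohort 2, with 15 of 17 FSL rats below the FRL median. Kifc2 fell by 0.21 in P/FC (SE 0.041, limma adjusted p = 3.77e-04) and by 0.10 in HIP (SE 0.031, adjusted p = 0.0293). Kifc3 fell by 0.092 in P/FC (SE 0.030, adjusted p = 0.0257), from a range of 213 to 266 in FRL to 196 to 256 in FSL, and was at -0.082 in HIP (adjusted p = 0.0927). Kifc1, a kinesin of the spindle whose signal was low, was at 0.18 (95% interval -0.052 to 0.41) in HIP and 0.0023 in P/FC and passed in neither.

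**Figure D1:**
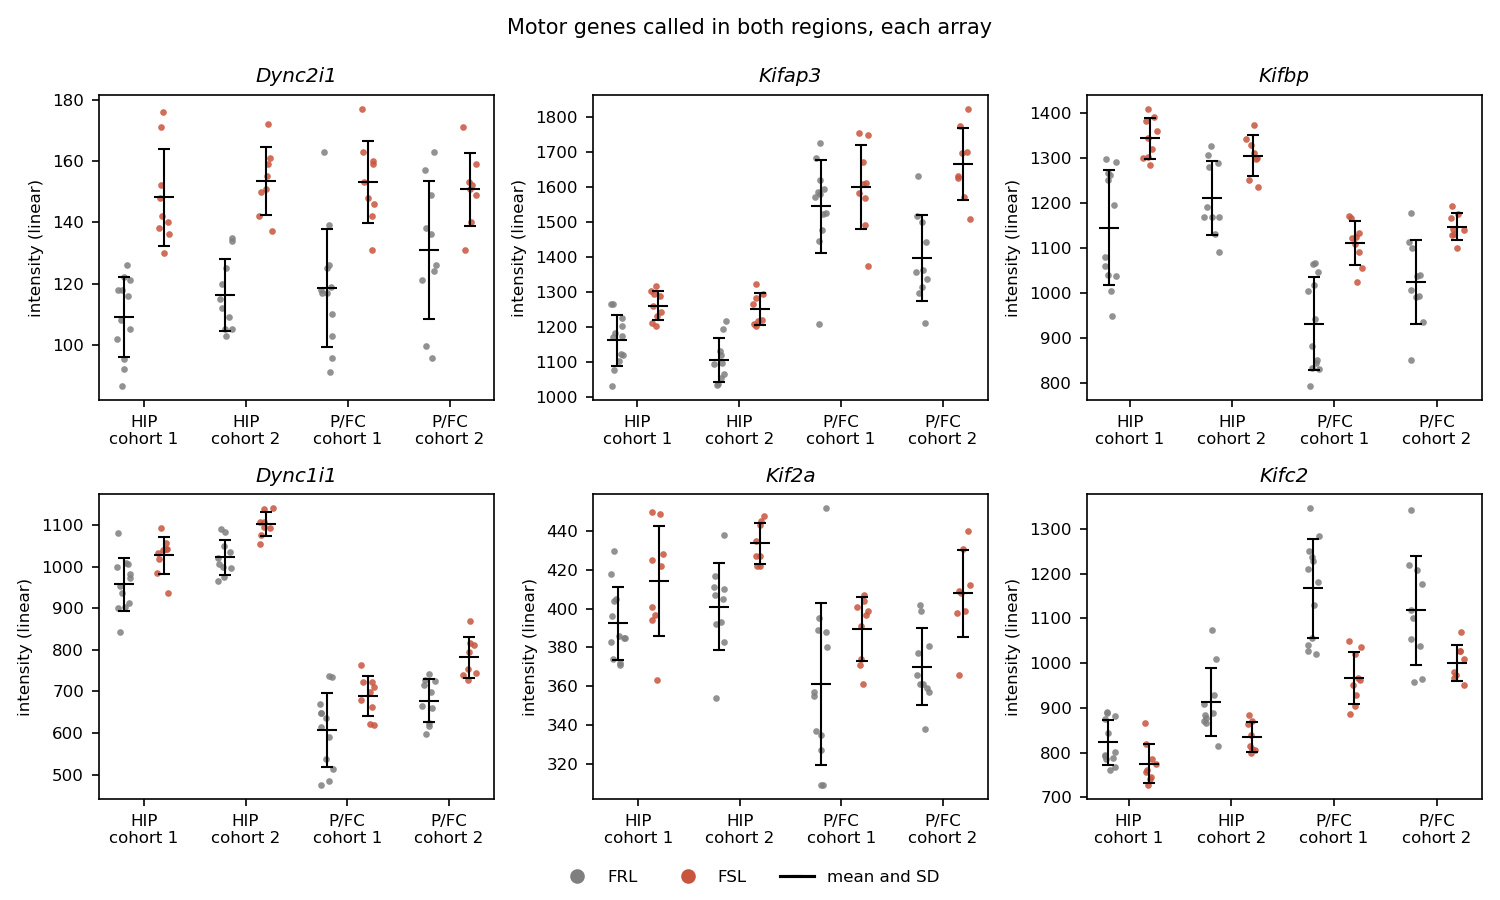
Linear intensity of the 6 motor genes called in both regions, 1 point for each array, by region, cohort and line (FRL grey, FSL red), with the mean and SD of each group. Dync2i1 in HIP is the gene whose lines do not overlap in either cohort, and Kifc2 has the lower mean in FSL in all 4 pairs of groups.

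Kif5a led the calls made in P/FC alone that went down. It is a heavy chain of kinesin-1 particular to neurons, which carries neurofilaments among other cargo. In cohort 1 it ranged from 1442 to 1990 in FRL (median 1645) and from 1315 to 1525 in FSL (median 1401), with 6 of 9 FSL rats below every FRL rat, and in cohort 2 from 1462 to 2136 (median 1637) and from 1345 to 1694 (median 1468). It fell by 0.21 in P/FC (SE 0.046, limma adjusted p = 0.0013) and was at -0.051 in HIP (95% interval -0.13 to 0.030). The related Kif5b, found in all tissues, was at -0.11 in P/FC (adjusted p = 0.144) and -0.010 in HIP, and Kif5c at 0.029 and 0.10 with wide intervals, -0.33 to 0.39 in P/FC. The dimmer probeset of Kif5b had the opposite sign, 0.17 in P/FC (adjusted p = 0.147) and 0.18 in HIP (0.108). The second probeset of Kif5c was at 0.30 in P/FC (adjusted p = 0.0662) and 0.27 in HIP (0.075). Its dimmest was at -0.19 (adjusted p = 0.0575) and -0.025, and none of these dimmer probesets was called. None of the 4 kinesin-1 light chains Klc1 to Klc4, which bind cargo, was called in either region by its brightest probeset, and none of their unadjusted p values was under 0.05. The interval of Klc1 was narrow, -0.041 to 0.039 in HIP and -0.070 to 0.037 in P/FC, and that of the dim Klc3 was wide, -0.37 to 0.22 in HIP.

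On the dynein side the calls made in P/FC alone went up. Dync1h1, the heavy chain that holds the motor domain, ranged from 818 to 1237 in FRL (median 956) and from 984 to 1338 in FSL (median 1222) in cohort 1 and from 797 to 1169 (median 866) for FRL and up to 1210 (median 1025) for FSL in cohort 2, where the ranges overlapped. It rose by 0.27 in P/FC (SE 0.056, limma adjusted p = 8.53e-04) and was at 0.037 in HIP (95% interval -0.040 to 0.11). Dctn4, a subunit of the pointed end of dynactin, ranged from 120 to 186 in FRL (median 144) and from 164 to 190 in FSL (median 184) in cohort 1, and from 76.2 to 137 (median 116) and 108 to 161 (median 152) in cohort 2. It rose by 0.32 in P/FC (SE 0.065, adjusted p = 6.77e-04), with 0.29 in cohort 1 (adjusted p = 0.035) and 0.34 in cohort 2 (adjusted p = 0.0327), and was at 0.067 in HIP (-0.064 to 0.20). It was the only member called in each cohort of P/FC, as Dync2i1 was in HIP. The light intermediate chain Dync1li1 rose by 0.15 (adjusted p = 0.00956) and the light chain Dynlrb1 by 0.077 (adjusted p = 0.0353).

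Other parts of the same complexes did not pass, several with narrow intervals. Dctn1, the dynactin arm that grips microtubules, was at 0.0085 in HIP (-0.036 to 0.053) and -3.3e-04 in P/FC (-0.058 to 0.057), and Dync1li2, the second light intermediate chain, was at 0.0026 and -0.0011 (-0.054 to 0.051 in P/FC). Dync1i2, the intermediate chain found in all tissues, was at 0.049 and 0.031, and the light chain Dynll2 at -0.0065 and 0.011. Dctn2, which holds the arm to the filament of dynactin, was at -0.036 and 0.091, Dctn5 at 0.029 and 0.048 and Dctn6 at 1.7e-04 and 0.055. All 7 light chains tested in P/FC had a change above 0, from 0.010 in Dynlt3 to 0.17 in Dynlrb2, and 1 of them was called. By limma only 1 of the 7 had an unadjusted p under 0.05. Of all 48 members tested in P/FC 32 were above 0, and this share was not counted over all probesets. In HIP none of the 6 light chains tested and none of the 5 dynactin subunits was called by limma, and none had an unadjusted p under 0.05.

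**Figure D2:**
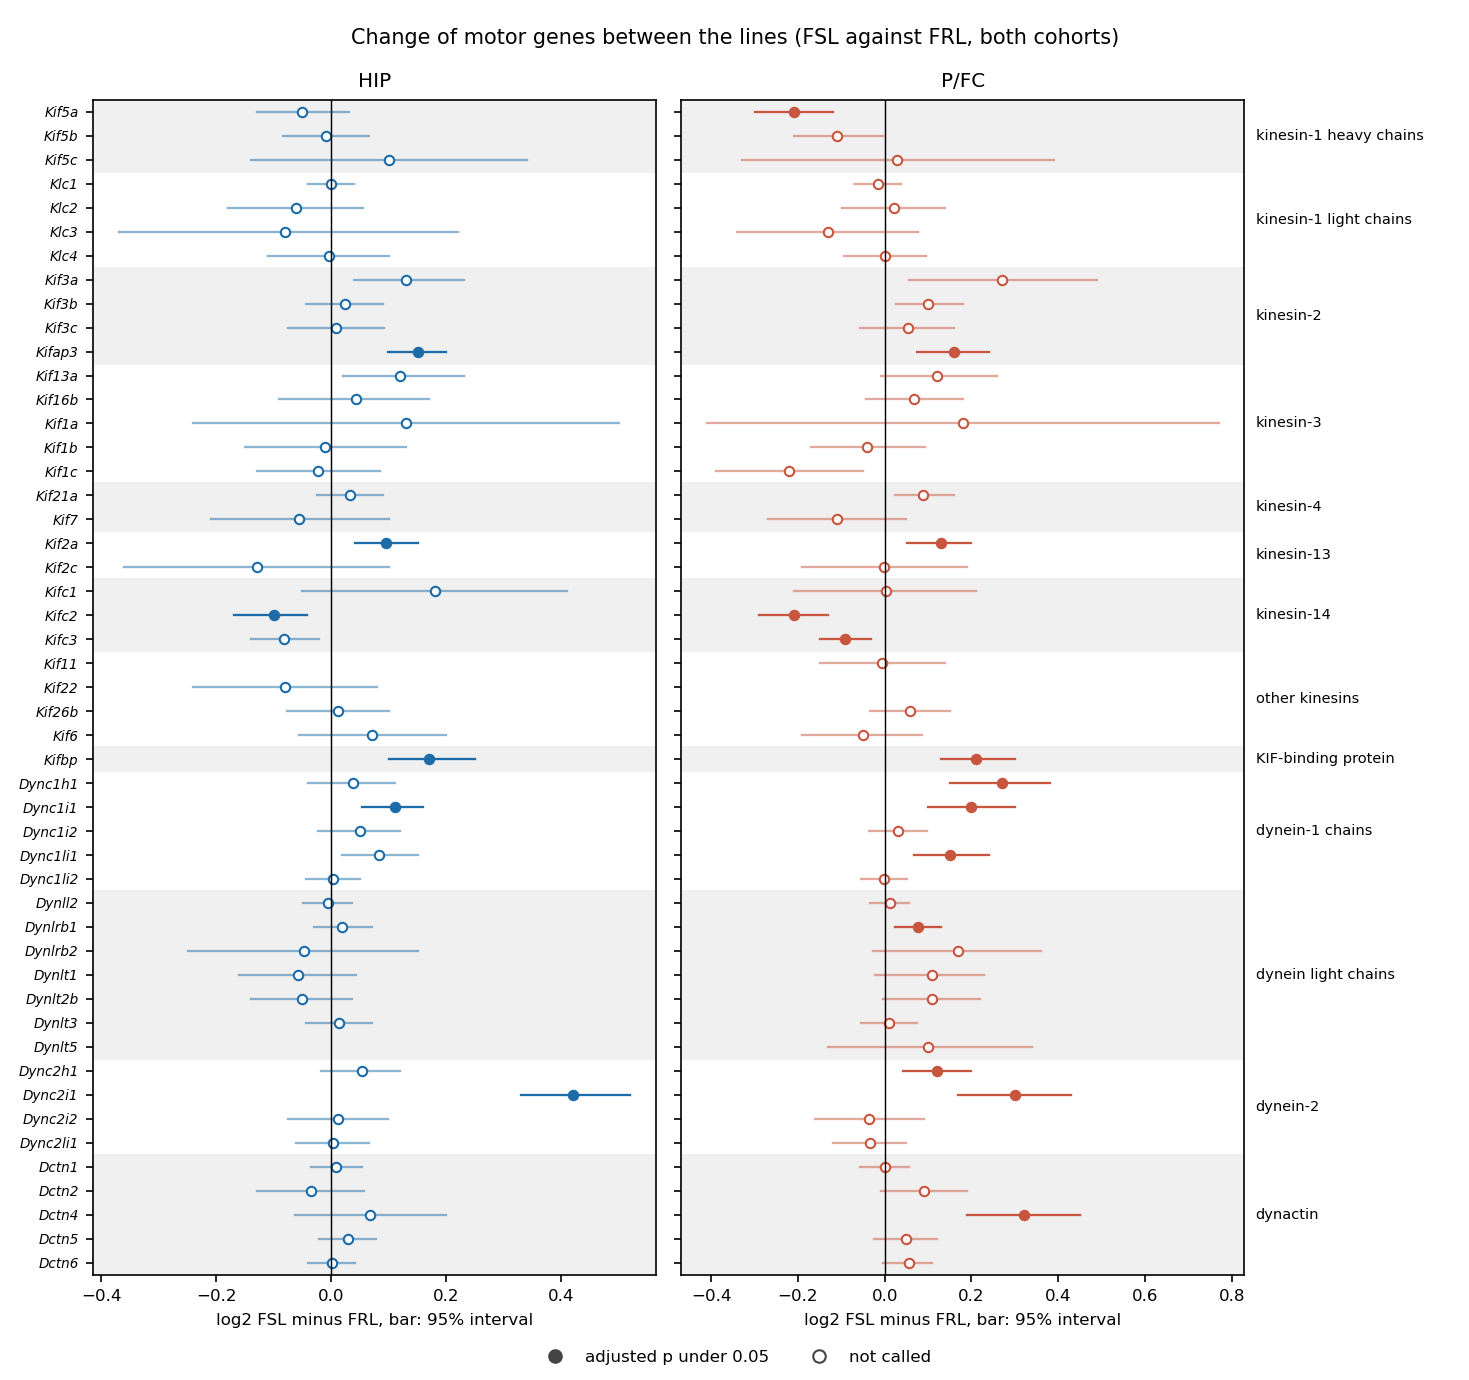
Change of each tested motor gene, log2 FSL minus FRL over both cohorts, in HIP on the left and P/FC on the right, with 95% intervals and filled points for adjusted p under 0.05. The x axes of the panels differ. Dync2i1 stands apart in HIP at 0.42, and Kif1a has the widest interval in P/FC, -0.41 to 0.77.

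Single cohorts gave fewer calls. In HIP 2 of 47 members were called in cohort 1 (2.36% of all probesets), Dync2i1 and Kifbp, and 2 in cohort 2 (2.33% of all), Dync2i1 and Kifap3. In P/FC 6 of 48 were called in cohort 1 (7.8% of all), Dctn4, Dync1h1, Dync2i1, Kif5a, Kifbp and Kifc2, and 2 in cohort 2 (3.78% of all), Dctn4 and Kifap3. With an unadjusted p of at most 0.05 in each cohort and the same sign, 6 members passed in HIP (4.85% of all) and 9 in P/FC (9.87% of all). By limma's adjusted p, no member changed differently in the cohorts (0% of all probesets in either region), and 1 member in each region, Dynlt2b in HIP and Kifap3 in P/FC, had an unadjusted p under 0.05. The change of no member differed between the regions either, with 14 such probesets among all 20963 (0.0668%). By unadjusted p 6 of 46 members were under 0.05 there, and the share of all probesets at this looser threshold was not counted. These members were led by Dync1h1 (0.23 higher in P/FC, p = 0.00103, adjusted p = 0.279), Dctn4 (0.25, adjusted p = 0.44) and Kif5a (-0.16, adjusted p = 0.459). The calls made in P/FC alone are therefore not shown to differ from HIP.

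Measures of the arrays moved with the line. The Gapdh control probesets give a log2 ratio of 3′ over 5′ signal, a sign of RNA or labelling length, which had a mean of 0.74 in FSL and 0.83 in FRL in P/FC of cohort 1 and 0.82 and 0.92 in cohort 2. With this ratio in the model 3 of 13 calls in P/FC remained, those of Dync2i1, Kifbp and Kifc2, while over all probesets 853 were called in place of 4166. Dctn4 then had an adjusted p of 0.13, Dync1h1 of 0.066, Kif5a of 0.0782 and Kifap3 of 0.0601. In HIP the ratio of Actb was 0.60 in FSL and 0.72 in FRL of cohort 1 and 0.73 and 0.82 in cohort 2, and with it in the model Dync2i1, Kifap3 and Kifbp remained called of the 6, and Dync1i1 (adjusted p = 0.121), Kif2a (0.589) and Kifc2 (0.486) did not. The Actb ratio in P/FC had means of 0.64 in FSL and 0.73 in FRL of cohort 1, but 0.84 and 0.86 in cohort 2. The Gapdh ratio in HIP had means of 0.76 in FSL and 0.80 in FRL of cohort 1, and 0.82 and 0.86 in cohort 2.

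Neuronal and astrocyte markers moved as well. Of 10 pan-neuronal genes tested 3 rose in HIP (3.2% of all probesets did) and 6 in P/FC (9.76% of all), and none fell. Of 9 astrocyte genes 6 fell in HIP (4.13% of all probesets did) and 8 in P/FC (8.86% of all), and none rose. The mean log2 level of the pan-neuronal genes in P/FC ranged from 10.34 to 10.76 in FRL and 10.59 to 10.77 in FSL of cohort 1 and from 10.42 to 10.71 and 10.70 to 10.79 in cohort 2. That of the astrocyte genes in P/FC ranged from 9.71 to 10.29 and 9.65 to 9.95 in cohort 1 and from 9.75 to 10.36 and 9.75 to 9.86 in cohort 2. Their part in the changes of the motor genes was not tested. Of the other marker lists, 2 of 10 striatal genes were called higher in P/FC by limma (9.76% of all probesets were), and 7 had an unadjusted p under 0.05. Their median change in P/FC was 0.55. The mean log2 level of the striatal list in P/FC was 8.00 in FSL and 6.97 in FRL of cohort 1, and 7.48 and 7.36 in cohort 2. In HIP 0 of 8 were called and none had an unadjusted p under 0.05, and the regions were not compared in this. Of 9 vessel genes 1 was called lower in HIP (4.13% of all) and 4 in P/FC (8.86% of all), and microglial genes gave 1 up and 1 down of 9 in HIP and 2 down of 10 in P/FC. Of 7 meningeal genes Dcn, a matrix protein, was called higher in HIP (0.62, adjusted p = 6.77e-04) and none of 6 was called in P/FC, where none had an unadjusted p under 0.05. Of the hippocampal neuron genes, Nr3c2, the mineralocorticoid receptor, was called higher in P/FC (0.27, adjusted p = 0.00284), 1 of 5, and none of 6 was called in HIP, where again none had an unadjusted p under 0.05. By limma no gene of the ependyma, choroid plexus, oligodendrocyte or dividing cell lists was called in either region, and by unadjusted p under 0.05 these lists held 1 ependymal gene in each region. Scores of striatal and meningeal markers were tried as covariates in P/FC and left 10 members called, without Dync2h1 (adjusted p = 0.139), Dynlrb1 (0.118) and Kifc3 (0.0999).

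Of the 49 members 19 had more than 1 probeset, and where these lie on the transcripts was not examined. Kifap3 was called in both regions by its brightest and by its second brightest of 3 probesets (0.13 and 0.23, limma adjusted p = 0.00311 and 0.00471). Klc1, whose transcripts are spliced in many forms, had called probesets of opposite sign. Its brightest of 4 did not differ between the lines beyond the error, the second rose in HIP (0.23, SE 0.051, adjusted p = 0.00299) and in P/FC (0.24, adjusted p = 0.0177), and the third fell in P/FC (-0.17, adjusted p = 0.0358). Kif13a, a carrier of sorting vesicles, rose by its second of 3 probesets in HIP (0.37, SE 0.11, adjusted p = 0.0314) and in P/FC (0.39, adjusted p = 0.0134), where its brightest was at 0.12 in each region and not called.

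The second probesets of Kif3a (0.23, adjusted p = 0.034) and Kif3c (0.25, adjusted p = 0.0373), heavy chains of kinesin-2, rose in P/FC where the brightest were at 0.27 (adjusted p = 0.0702) and 0.054. For Kif5a neither dimmer probeset was called in P/FC (-0.14 and -0.096, adjusted p = 0.221 and 0.604), and the mean of its probesets was not called (adjusted p = 0.122). The third probeset of Kif2a was at 0.0026 in HIP, and there the mean of the Kif2a probesets lost the call (adjusted p = 0.103). Of the genes with at least 2 tested probesets, none of 15 in HIP and none of 14 in P/FC had a call on every probeset. Dync2i1, Kifbp, Kifc2, Dctn4, Dync1h1 and Dync1i1 have 1 probeset each, so that nothing on the array repeats those values.

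**Figure D3:**
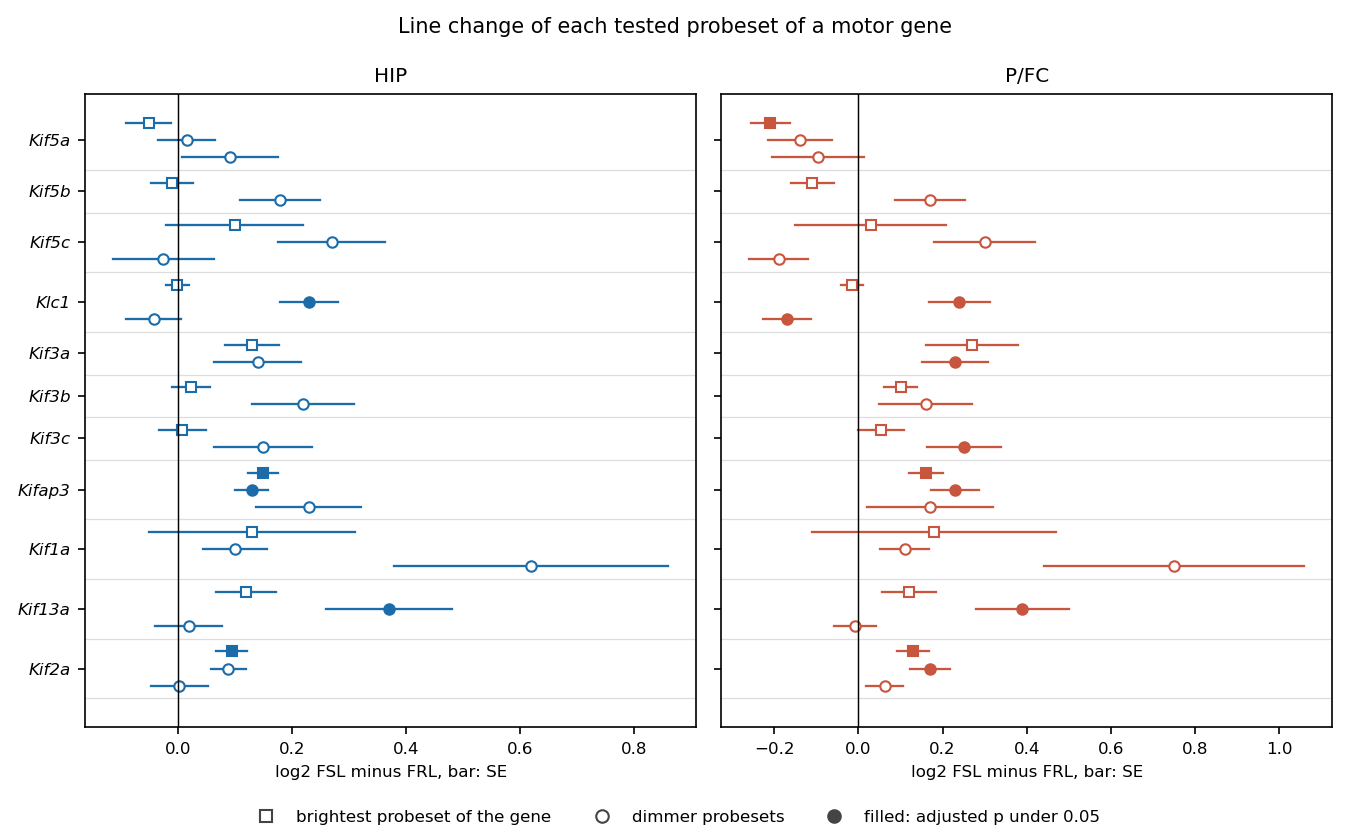
Change (log2 FSL minus FRL, bars the SE) of every tested probeset of 11 motor genes with more than 1, brightest on top, in HIP and P/FC, filled where the adjusted p was under 0.05. Klc1 holds filled points on both sides of 0 in P/FC, and Kif5a a filled point only for its brightest probeset.

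Kif1a, the carrier of synaptic vesicle precursors, and Kif5c, another kinesin-1 heavy chain, varied among rats of 1 group far more than they differed between the lines. Kif1a ranged from 78.2 to 552 in FRL and from 181 to 597 in FSL of P/FC cohort 1, and from 103 to 882 and 90.6 to 730 in cohort 2. In cohort 2 the values fell in 2 clusters. The FRL rats numbered 1 to 4 in the labels were at 882, 700, 822 and 405 and the other 6 between 103 and 263, and the FSL rats numbered 1 to 4 were at 730, 479, 580 and 453 and the other 4 between 90.6 and 231. Kif5c parted the same rats, with 849 to 1230 against 290 to 520 in FRL and 841 to 992 against 342 to 465 in FSL. Kif3a did so too, with 206 to 287 against 104 to 151 in FRL and 229 to 277 against 138 to 182 in FSL. This split by number was noticed in the values of Kif1a and is a description.

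Over all probesets, numbers 1 to 4 were apart from the later numbers in both lines for 2.67% in P/FC of cohort 2, and for 3 of 48 members. In the other sets the share was 0.0447% in P/FC of cohort 1, 0.0185% in HIP of cohort 1 and 0.176% in HIP of cohort 2, with no member among them. Each cohort was run in 2 labelling batches, and the labels do not say which array was in which, so that the cause was not tested. With this split as a covariate, chosen after seeing the data, all 13 calls in P/FC were kept, and Kif3a was called too (0.23, SE 0.068, limma adjusted p = 0.0123). Kif1a was then at 0.093 (SE 0.22) and Kif5c at -0.037 (SE 0.10), and neither passed. The second brightest of the 3 Kif1a probesets did not share the wide spread, and its change was 0.10 in HIP (SE 0.056) and 0.11 in P/FC (SE 0.058, adjusted p = 0.167). The dimmest had large standard errors too, with a change of 0.62 in HIP (SE 0.24, adjusted p = 0.12) and 0.75 in P/FC (SE 0.31, adjusted p = 0.089), neither called.

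**Figure D4:**
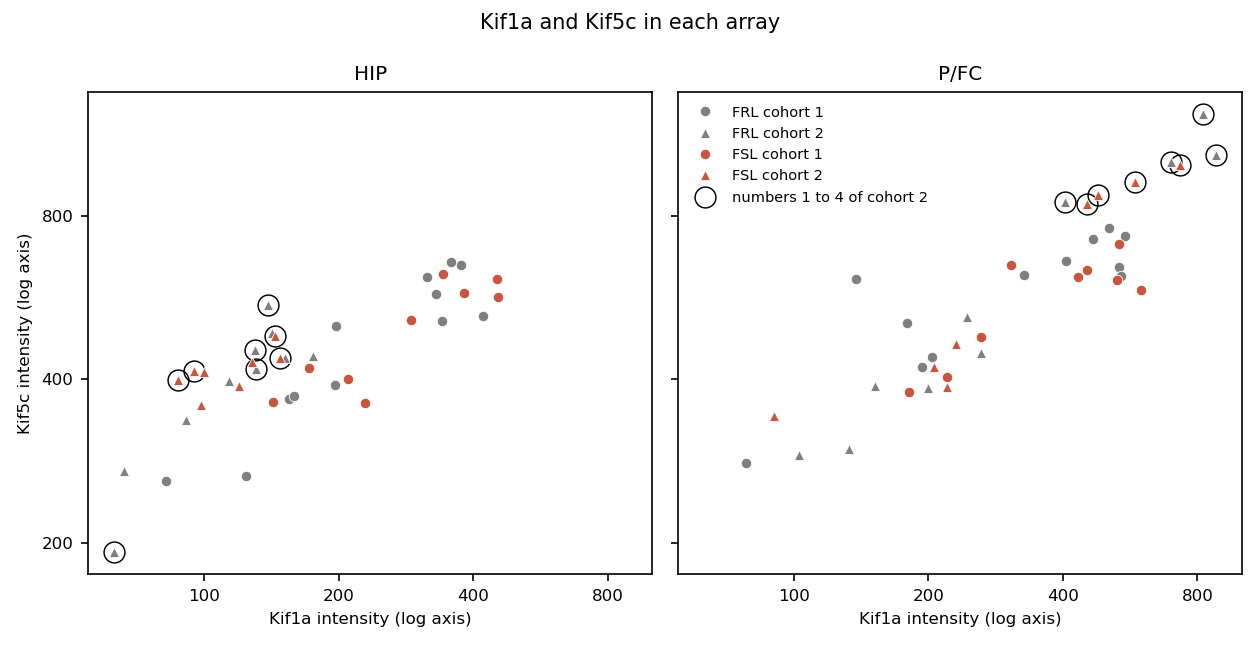
Intensity of Kif1a against that of Kif5c in each array of HIP and P/FC, on log axes, by line (colour) and cohort (shape), with the arrays numbered 1 to 4 of cohort 2 ringed. In P/FC the ringed arrays of both lines sit at or above 405 for Kif1a and 841 for Kif5c, and the other arrays of cohort 2 at or below 263 and 520.

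Between the regions, 46 members were tested in a fit over all 78 arrays, and 35 were called, against 69.6% of 20963 probesets. By this fit 22 were higher in P/FC (48.5% of all) and 13 higher in HIP (21.1% of all), while after quantile normalisation the split was 16 to 20. The median difference of the members, P/FC minus HIP, was 0.054, beside 0.085 over all probesets. Region and processing cannot be told apart, since the regions were run separately. Kif1a had the largest difference toward P/FC at 0.90 (SE 0.18, limma adjusted p = 6.43e-06), and its dimmest probeset was called higher in P/FC as well (adjusted p = 8.65e-06), though its second was at -0.069 (adjusted p = 0.119). By its brightest probeset the mean intensity was 273 in HIP and 364 in P/FC of cohort 1, and 118 and 383 in cohort 2. The P/FC arrays of cohort 2 include the numbers 1 to 4 that stood apart. The next largest difference was that of Kif5a, 0.58 (SE 0.030). It had a range of 848 to 1444 in HIP (median 1056, n = 39) and of 1315 to 2136 in P/FC (median 1548, n = 39), and the ranges overlapped only from 1315 to 1444. Its 3 probesets were in accord, at 0.58, 0.68 and 0.69, all called.

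Kinesin-1 and kinesin-2 parts lay mostly higher in P/FC. By its brightest probeset Kif5c was at 0.40 (SE 0.11) and by its dimmest at 0.24, both called, but by its second at 1.3e-04 (limma adjusted p = 0.999). Klc1 was at 0.34 (SE 0.015), Klc2 at 0.24 and Klc4 at 0.18. The second probeset of Klc1 was at 0.27 and called, and the third at -0.0077 and not called. Kif5b alone of this group was called higher in HIP, at -0.24 (SE 0.031). The kinesin-2 subunits Kifap3 (0.37, SE 0.023), Kif3a (0.32), Kif3c (0.19) and Kif3b (0.068) were all called higher in P/FC, though Kif3b turned to -0.028 after quantile normalisation and was not called. The second probeset of Kif3b was at -0.12 (SE 0.071, adjusted p = 0.131) and not called. Kif3a and Kif5c also hold the split of P/FC cohort 2. The mean of Kif3a was 162 in HIP and 187 in P/FC of cohort 1, and 134 and 190 in cohort 2. That of Kif5c was 482 and 576 in cohort 1, and 405 and 649 in cohort 2. In P/FC of cohort 2 the later numbers of Kif5c (290 to 520 in FRL, 342 to 465 in FSL) lay within its HIP range of that cohort, 192 to 548. Klc1 ran from 2134 to 2633 in HIP and 2695 to 3249 in P/FC. Of the dynein light chains Dynlrb1 (0.26) and Dynll2 (0.25) were higher in P/FC, and Dynll2 ran from 2111 to 2478 in HIP and 2562 to 2940 in P/FC. How often the ranges of the regions part over all probesets was not counted, so these ranges are a description. Kifc2 was at 0.34 (SE 0.025).

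Higher in HIP were Kif26b, a kinesin-like protein with a role in development, Dync1i1, Dynlrb2, Kif13a, Kif1c, Kif1b, Dynlt2b and Kifbp. Dync1i1 spanned 842 to 1141 in HIP against 475 to 870 in P/FC, a difference of -0.58 (SE 0.027, limma adjusted p = 6.73e-32), while its partner Dync1i2 was higher in P/FC (0.23, SE 0.023). Kif26b was at -0.63 (SE 0.032) by its brightest probeset and at 0.65 (SE 0.052) by its second, both called, and Kif13a was at -0.56 by its brightest and 0.41 by its dimmest, so that neither gene has 1 direction on this array. Kif1c, a carrier of secretory vesicles, was at -0.44 (SE 0.050) and Kif1b, which moves mitochondria and vesicles, at -0.41 (SE 0.048). Dynlrb2, a light chain of ciliated cells, was at -0.56 (SE 0.069), with 80.6 to 182 in HIP and 46.1 to 128 in P/FC, and Dynlt2b, a light chain of dynein-2, was at -0.27. Dynlrb2 is itself on the list of ependymal markers, and the other 2 of that list that were tested, Tmem212 (-0.52) and Tekt1 (-0.29), were higher in HIP too. Their part was not tested. Dync1li1 (0.059) and Kifc3 (0.049), called higher in P/FC, had the opposite sign after quantile normalisation. The mean intensity of Dync1li1 was 834 in HIP and 790 in P/FC of cohort 1, and 573 and 654 in cohort 2, so that its direction differed between the cohorts.

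**Figure D5:**
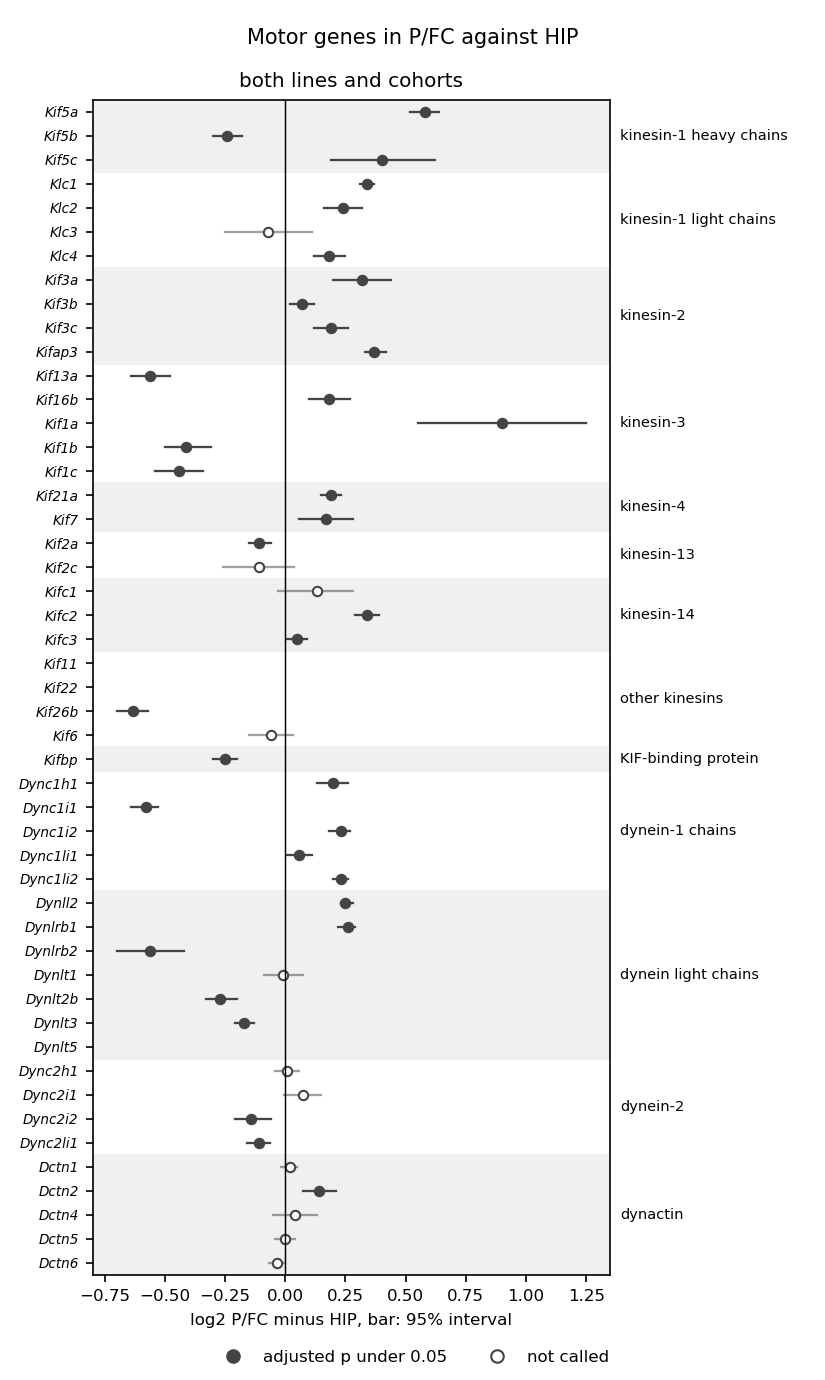
Difference of each motor gene between the regions, log2 P/FC minus HIP over both lines and cohorts, with 95% intervals and filled points for adjusted p under 0.05. Kif1a and Kif5a lie farthest right at 0.90 and 0.58, and Kif26b and Dync1i1 farthest left at -0.63 and -0.58.

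Genes that work with the motors were read from lists of cargo adaptors and regulators, microtubule-associated proteins, tubulins and axonemal dyneins, chosen from general knowledge. Of 27 adaptors and regulators tested in each region, 1 rose and 1 fell in HIP and 4 rose and 3 fell in P/FC, with median changes of 0.023 and 0.060. Apba1 (-0.20, limma adjusted p = 2.72e-04), which links Kif17 to receptor vesicles, and Trak1, which ties mitochondria to kinesin-1 (-0.25, adjusted p = 5.24e-04), fell in P/FC, and Actr10, a pointed-end subunit of dynactin, rose (0.17, adjusted p = 2.92e-04). Trak1 also fell in HIP (-0.11, adjusted p = 0.0202), where Fez1, a kinesin-1 adaptor, rose (0.068, adjusted p = 0.0297).

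Of 23 microtubule-associated proteins 2 rose and 2 fell in HIP and 3 rose and 3 fell in P/FC. Stmn2, a regulator of microtubule growth in axons, rose in both regions (0.20 and 0.29, limma adjusted p = 1.07e-05 and 2.41e-07), as did Map6, which stabilises microtubules (0.25 and 0.21), and Map7, a recruiter of kinesin-1, fell (-0.17 in each, adjusted p = 8.24e-05 and 0.0255). Of the tubulins 2 of 11 fell in HIP, Tubb4a (-0.22, adjusted p = 0.00119) and Tuba8 (-0.22, adjusted p = 0.0415), and 3 of 10 rose in P/FC, the neuronal Tubb3 (0.19, adjusted p = 0.0012), Tubb4b (0.13) and Tubb5 (0.081). Of 4 axonemal dynein genes Dnal1, a light chain, fell in both regions (-0.13 and -0.20, adjusted p = 0.033 and 0.00256). The shares called in these lists stand beside 7.33% of all probesets in HIP and 18.6% in P/FC.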

How the data were processed

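RNA of both regions was hybridised by the authors to Affymetrix Rat Genome 230 2.0 arrays. The deposited values are linear intensities after background subtraction, 1 for each probeset and array, which the authors normalised in Rosetta Resolver 5.1. The number of arrays limits the precision. Line, cohort and region came from the sample titles, and gene symbols from the platform annotation, where 20826 probesets carry 1 symbol, 436 several and 9780 none. All 49 members matched a current RefSeq gene record with the same symbol. The authors' model held a labelling batch that the labels do not give, and it was left out here.

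A floor of 1 was set before the log2 transformation. Within a region, probesets had to exceed 30 in 50% or more of the arrays of both lines, as in the authors' filter, and the 57 control probesets were left out. The model (limma 3.58.1, R 4.3.3) gave every combination of line and cohort its own mean, separately by region, and the regions were compared in 1 fit over the 78 arrays, treated as independent because the rat behind each array is not given in the labels. An adjusted p under 0.05 over all kept probesets made a call, and 95% intervals used the moderated standard errors. The fit was tested on simulated data. The titles call the samples of a group biological replicates.

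The members, gene lists, tests and rule for named genes were chosen with earlier results of these data known. Named are members called over both cohorts, the 8 largest region differences in each direction, up to 3 with the smallest p for a difference between cohorts or regions, subunits of the core complexes whether called or not, members beside the limit of 30, and up to 3 genes of each list. Other settings tried were an unmoderated analysis of variance, no filter, a filter of 100, quantile normalisation, 16 added before the logarithm, a mean over the probesets of each gene, the replicate number as a block, the Gapdh or Actb ratio or tissue markers as covariates, and a separate fit of each cohort. Python 3.11.15 with pandas 2.3.3, numpy 2.4.6, scipy 1.17.1 and matplotlib 3.10.9 made the tables and figures.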

Additional observations from a re-analysis of the deposited data

Results flagged for a closer look

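In the groups of 8 to 10 rats, 234 sets of values of 39 named motor genes were examined for 1 array far from the others, and 14 had one, where chance alone flags about 1 in 20. Groups of 12 were not examined. In P/FC FRL rats of cohort 2 the highest array stood apart for Dctn2 (753, next 653) and Dync1h1 (1169, next 951). In P/FC FSL rats of cohort 2 the highest stood apart for Dync1li1 (814, next 712), Dynlt1 (126, next 108) and Kif1b (97.6, next 76.7), and the lowest for Kif26b (80.5, next 101) and Klc3 (20.3, next 35.0). In P/FC FSL rats of cohort 1 the highest array of Dynlrb2 was at 128 (next 91.8). In HIP the highest array stood apart for Dync1i2 in FSL rats of cohort 2 (525, next 488), Dync1li1 in FSL rats of cohort 1 (998, next 906), and Dynlrb2 (182, next 131) and Kif5a (1444, next 1203) in FRL rats of cohort 2. The lowest array in HIP stood apart for Dynlt2b in FRL rats of cohort 2 (93.6, next 118) and Klc4 in FSL rats of cohort 2 (119, next 138). No motor gene changed differently between cohorts or regions by the adjusted p.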

How the results depend on the processing

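Of 11 alternatives, the plain analysis of variance, no filter, the filter of 100, quantile normalisation and the offset of 16 kept all 6 calls in HIP and all 13 in P/FC. The Gapdh ratio left 3 calls in P/FC (3 in cohort 1 and 1 in cohort 2), and 3 members with an unadjusted p of at most 0.05 in each cohort in HIP and 3 in P/FC, in place of 6 and 9. In HIP it kept 4 of 6 calls, without Kif2a (adjusted p = 0.0935) and Kifc2 (0.098). The Actb ratio left 3 calls in HIP and 3 members passing in each cohort, and kept 11 of 13 in P/FC, without Kif2a (adjusted p = 0.0516) and Dynlrb1 (0.057). Separate fits of the cohorts kept 12 of 13 in P/FC, without Dynlrb1 (0.0582). Tissue markers left 2 calls in P/FC of cohort 1 in place of 6, and the mean of all probesets left 1 in P/FC of cohort 2 in place of 2. With the replicate number as a block, 4 members were called in HIP and 11 in P/FC, and 2 passed in each cohort in HIP in place of 6, with Dync1i1 (adjusted p = 0.0646) and Kif2a (0.0509) no longer called in HIP. In P/FC 10 of the 13 were kept, without Dync2h1 (0.102), Dynlrb1 (0.145) and Kifc3 (0.0756), and Kif3a was called in addition. The numbers were not taken as pairs, since the residuals of equal numbers correlated between the lines with medians of 0.12 and 0.011 in HIP and 0.058 and 0.22 in P/FC in cohorts 1 and 2, and the lowest pair was below 0 in all sets except P/FC of cohort 2, where the pairs ranged from 0.072 to 0.39 and 6 of 8 were over 0.1. Between the regions Dync1li1 turned to -0.055 and Kif3b to -0.028 and Kifc3 to -0.035 after quantile normalisation, and Dync1li1 to -0.20 and Kif3b to -0.025 with the mean of all probesets. Among members not called between the regions, quantile normalisation turned Dctn1 from 0.018 to -0.079, Dctn4 from 0.041 to -0.048 and Dync2h1 from 0.0076 to -0.076, and the mean of all probesets turned Dctn6 from -0.034 to 0.13. The causes were not tested. Low signals limit the dim members, such as Klc3, Kifc1, Kif2c and Kif11, whose wide intervals allow changes as large as those called elsewhere.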
